A study of Equus caballus with 8 samples.

Results

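Mesenchymal stem cells of the bone marrow (BM-MSCs) are stromal cells that attach to plastic and multiply when a marrow aspirate is put in culture. They were grown here from sternal marrow of 4 horses, which the labels name D, J, L and W. The marrow of each horse was divided between an untreated culture and a culture that received 1 ng/ml human TGF-b2, which made 8 libraries in all. The cultures described here are the 4 that carry the treatment label Control, 1 per horse, and they are called untreated cultures D, J, L and W. They grew in low glucose DMEM with 10% fetal bovine serum and antibiotics, without added TGF-b2, and RNA was taken at passage 3 or 4. The study's methods state that basic fibroblast growth factor was part of the standard medium, so that both the untreated and the treated cultures received it. The horses are described there as systemically healthy adults, Thoroughbreds or Thoroughbred crosses, with mares and geldings in equal number. No untreated culture was repeated within a horse, so the spread over the 4 cultures holds the difference between horses together with the difference between culture dishes, passages and library preparations, and these cannot be told apart within the untreated group.

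Stromal cells of the marrow build the fibrous and reticular scaffold in which blood cells develop, and they release chemokines and growth factors that hold and feed blood cell precursors. Grown on plastic they spread as fibroblast-like cells that pull on their substrate through bundles of actin and myosin. They lay down type I collagen, fibronectin and small leucine-rich proteoglycans, and under inducing media they can be driven towards bone, fat or cartilage.

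The values are normalized counts, which are the reads counted on a gene divided by a scaling factor for the library, and a share is the reads of a gene or group as a percentage of all reads on the 15266 named genes of a library. Values were not divided by transcript length. A long transcript therefore gives more reads than a short transcript at the same number of molecules, and the order of genes given below is an order of reads. Between 40044240 and 57228675 reads lay on named genes in the untreated libraries, and the widest 95% Wilson interval of any group share was ± 0.0153 percentage points, which covers counting error only. A floor of 3 reads corresponded to between 2.02 and 3.04 normalized counts. Untreated culture J stood apart from the other 3. Over the 14951 genes with a mean of at least 10 normalized counts, the correlation across genes of log2(normalized count + 1) between library J and another untreated library was 0.902 to 0.921, while it was 0.957 to 0.963 between libraries D, L and W. Culture J, and to a lesser degree culture W, also carried transcripts of T cells, and class shares and the list sums discussed are therefore given with and without culture J, while the mean of a single gene is over the 4 cultures.

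The label of the cells was checked against 6 genes of stromal identity. The reads of COL1A2, the second chain of type I collagen, numbered 323057 normalized counts in culture D, 130567 in J, 1053513 in L and 541474 in W. COL1A1, the first chain, was at 198255 in D, 106716 in J, 931747 in L and 348458 in W. Both chains were highest in L and lowest in J, and the highest culture exceeded the lowest 8.07-fold for COL1A2 and 8.73-fold for COL1A1. VIM, which encodes the intermediate filament of mesenchymal cells, was at 507949 in D, 277730 in J, 340966 in L and 327294 in W. FN1, the matrix glycoprotein fibronectin, was at 322663 in D, 101984 in J, 646088 in L and 375109 in W. LUM, the keratan sulfate proteoglycan lumican, was at 160128 in D, 87137 in J, 212755 in L and 287637 in W. THY1, the surface protein CD90, was at 103368 in D, 24238 in J, 73428 in L and 199815 in W. Each of the 6 genes was lowest in J, against 35.6% of all genes with a mean of at least 10. Together the 6 took 4.20% of the reads in D, 1.89% in J, 7.76% in L and 5.12% in W.

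The surface proteins that the study's protocol is stated to yield or to lack were compared with the transcripts. ITGB1, which encodes CD29, was at 70290 in D, 83793 in J, 80521 in L and 85751 in W. CD44, the hyaluronan receptor, was at 17396 in D, 16400 in J, 10325 in L and 13775 in W. These 2 genes varied little between cultures, unlike THY1. Of the proteins stated to be lacking, PTPRC (CD45), the phosphatase of white blood cells, was at 1.74 in D, 110 in J, 41.5 in L and 26.4 in W. The subunits of LFA-1 were also low, with a mean of 38.5 ± 13.4 normalized counts (SD, n = 4) for ITGAL and 62.7 ± 40.4 for ITGB2. In bulk RNA fewer cells of a type and less RNA per cell cannot be told apart, here and for every marker below. Of 16 further genes of the usual mesenchymal stem cell surface panel, 13 were in the table. All 13 had a mean of at least 1000, led by PDGFRB, CD63, ITGA5, CD81 and CD9. ENG (CD105) had a mean of 9728 ± 925 and NT5E (CD73) of 2437 ± 940. The widest span in that panel, 23.0-fold, was that of ALCAM (CD166), a cell adhesion receptor, at 1706 in D, 11419 in J, 1634 in L and 496 in W. Those genes of the labelled cell type that the table held were thus read in each of the 4 cultures, and the 6 identity genes, but not ITGB1 or CD44, were lowest in J.

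Of the named genes, 14951 had a mean of at least 10 normalized counts in the untreated cultures, 11709 of at least 100, and 6662 of at least 1000. In every culture 13786 genes reached 10, and 5 genes of the table had no read in any of the 4. The reads were spread over many genes. The 10 genes with the highest mean held 6.70% of the reads in D, 4.67% in J, 10.8% in L and 7.61% in W, a mean of 7.46% ± 2.57 (SD, n = 4). The 100 genes with the highest mean held 22.5% ± 4.19. To reach 50% of the reads took 737 genes in D, 836 in J, 574 in L and 625 in W, so that the reads were most concentrated in L and least in J.

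The 20 genes with the highest mean were, in order, COL1A2, COL1A1, VIM, FN1, EEF1A1, ACTB, ACTG1, FLNA, LUM, SPARC, CYP1B1, COL6A1, COL6A2, CLU, MYH9, ANXA2, LRP1, ENO1, TMSB4X and EEF2. They code for matrix proteins, for actin and the proteins that cross-link or pull on it, for elongation factors of translation and for enolase of glycolysis. The gene with the most reads differed between cultures. It was VIM in D with 1.32% of the reads, ACTB in J with 0.936%, and COL1A2 in L with 2.51% and in W with 1.33%. The 5 genes COL1A2, VIM, EEF1A1, ACTB and ACTG1 stood among the first 10 of every culture, and 49 genes stood among the first 100 of every culture. EEF1A1, which delivers aminoacyl-tRNA to the ribosome, was even, at 301783 in D, 281188 in J, 341230 in L and 276869 in W. ACTB, cytoplasmic beta actin, was at 262459 in D, 360764 in J, 260019 in L and 286027 in W, and so was highest in the culture with the lowest collagen. SPARC, a collagen-binding glycoprotein, was at 81676 in D, 62177 in J, 285417 in L and 183720 in W. CYP1B1, a cytochrome P450 enzyme, was at 167100 in D, 44069 in J, 137357 in L and 214561 in W. LRP1, an endocytic receptor that clears proteases and matrix fragments, was at 99959 in D, 40575 in J, 193950 in L and 116674 in W. CLU, the secreted chaperone clusterin, was at 135108 in D, 93120 in J, 124957 in L and 136086 in W. In culture J the first 10 also held B2M and LOC100051962, which RefSeq names as the guanylate binding protein GBP6, and these ranked 52 and 130 by the mean of the 4 cultures.

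**Figure D1:**
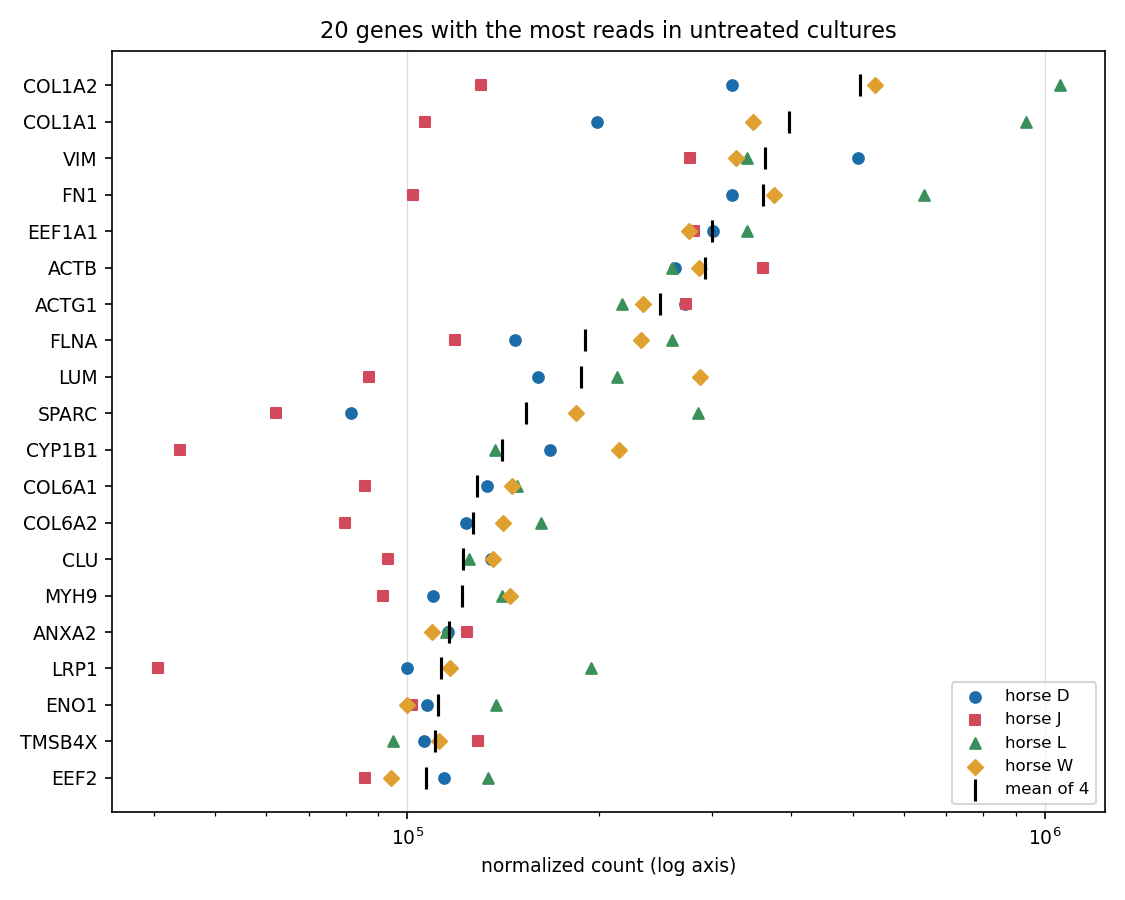
Normalized count (log axis) of the 20 genes with the highest mean in untreated cultures, with a coloured symbol for each horse and a black bar for the mean of 4. The matrix genes COL1A2, COL1A1, FN1, LUM, SPARC, COL6A1 and COL6A2 have their lowest point in horse J, whereas EEF1A1, ACTB, ACTG1, ANXA2 and TMSB4X span less.

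The named genes were sorted into 21 functional classes by fixed lists of symbols, and 59.4% of the reads lay outside them. Of the 100 genes with the highest mean, 85 fell in a class. The other 15, chosen after their values were seen, included CYP1B1, CLU, GJA1, APP, CD99, PRRX1, DPYSL3, CLIC4, CAVIN1, KCTD12, MFGE8, LOC100056464, ISLR and MRC2. The class with the largest share was the actin cytoskeleton and contractile proteins with 6.21% ± 0.41 of the reads (SD, n = 4), followed by cytosolic ribosomal proteins with 4.70% ± 0.33, collagen chains with 3.94% ± 2.38, matrix glycoproteins and elastic fibre proteins with 3.33% ± 1.09 and translation factors with 2.71% ± 0.21. The order of the first 3 did not hold in each culture. Collagen chains came first in L and stood below matrix glycoproteins in D and J. Without culture J the mean share was 4.75% for collagen chains, 3.80% for matrix glycoproteins, 6.25% for actin cytoskeleton, 4.62% for ribosomal proteins and 2.67% for translation factors. In percentage points the widest SD of the 21 classes was that of collagen chains, and as a fold the widest span, 8.82-fold, was that of MHC class I and antigen processing, described below. Collagens, matrix glycoproteins and proteoglycans together took 7.31% of the reads in D, 4.05% in J, 13.1% in L and 10.1% in W, so that L exceeded J 3.24-fold, and their mean was 8.65% ± 3.88 with culture J and 10.2% ± 2.90 without it. Cytoskeletal classes together took between 7.84% and 8.52%, and ribosomal proteins with translation factors between 6.69% and 7.76%.

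**Figure D2:**
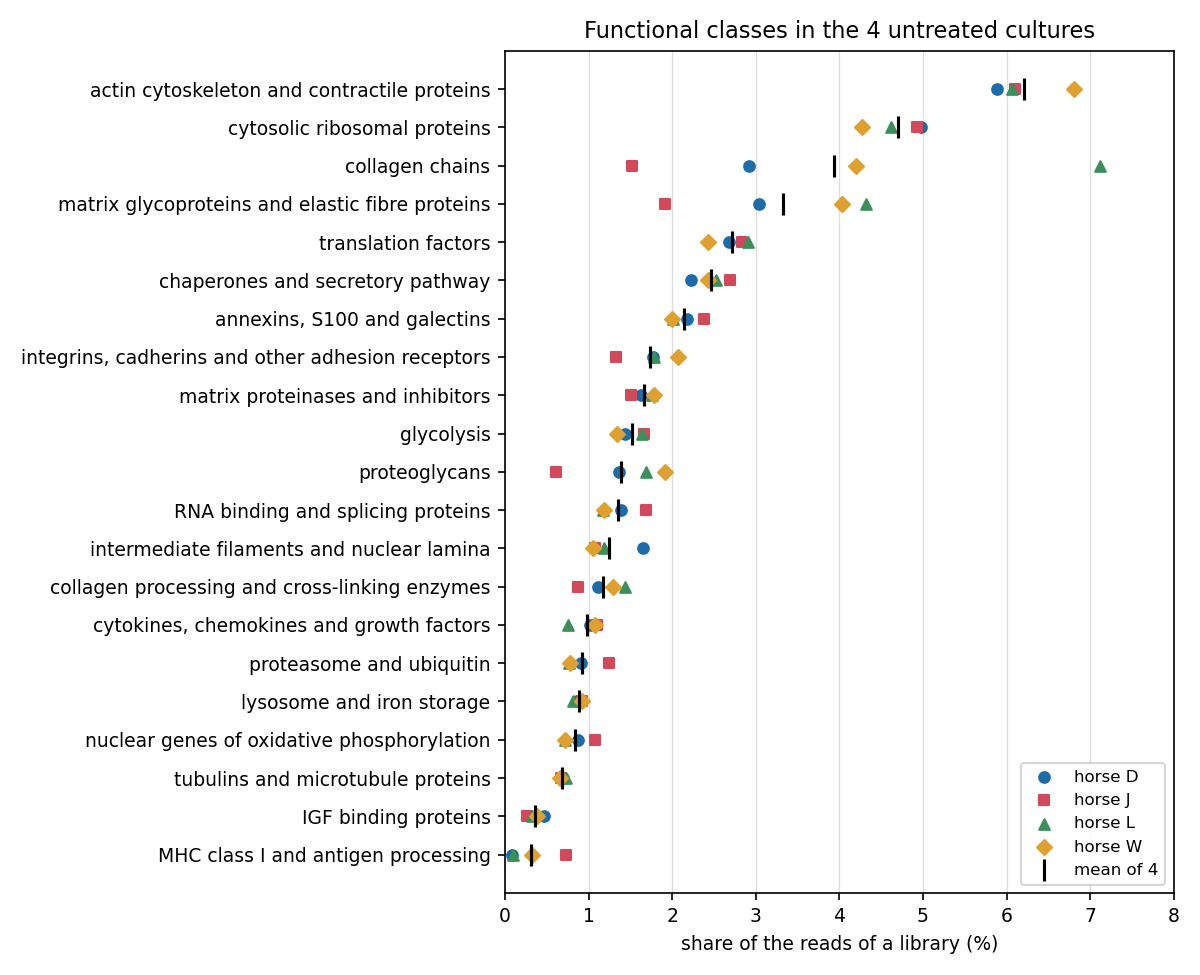
Share of the reads of a library (%) in each of 21 functional classes, with a coloured symbol for each horse and a black bar for the mean of 4. Collagen chains run from 1.52% in horse J to 7.12% in horse L, while tubulins and lysosome genes have their 4 points close together.

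Collagen chains were described first, since they carry the strength of connective tissue. Of 24 collagen genes in the table, 18 were lowest in culture J, where 35.6% of all genes with a mean of at least 10 lay below the other 3 cultures. COL6A1, a chain of the beaded filament collagen that surrounds cells, was at 133170 in D, 85818 in J, 148569 in L and 145771 in W, and COL6A2 followed it closely, at 123609 in D, 79875 in J, 162206 in L and 141423 in W. COL6A3, the long chain of the same protein, was at 85391 in D, 32674 in J, 183867 in L and 84641 in W. COL5A1, which nucleates type I fibrils, was at 36671 in D, 18489 in J, 158133 in L and 100266 in W, an 8.55-fold span. COL5A2 had a mean of 75842 ± 44110 and COL12A1, which decorates the fibril surface, of 75261 ± 37430. The network-forming COL4A1, COL4A2, COL8A1 and COL8A2 varied less than COL5A1. COL8A2 had a mean of 37268 with 24534 in the lowest culture, J, and 54746 in the highest, W. COL23A1, a membrane-bound collagen, had the opposite order, with 469 in J and between 53.1 and 71.6 in D, L and W. The cartilage collagen chain COL9A2 had a mean of 58.1 ± 7.27.

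The machinery that folds and links collagen was more even than the chains. P4HB, the beta subunit of prolyl hydroxylase, was at 94803 in D, 66129 in J, 107861 in L and 102026 in W. SERPINH1, the collagen chaperone HSP47, was at 27145 in D, 27065 in J, 78738 in L and 44993 in W, and LOX, the enzyme that cross-links collagen and elastin, at 22513 in D, 12861 in J, 39519 in L and 43018 in W. PCOLCE, which speeds the removal of the procollagen C-propeptide, had a mean of 36448 ± 10736. LOXL1, a relative of LOX tied to elastic fibres, ran from 22243 in L to 30613 in D and did not follow LOX. The class of 29 genes held 1.11% of the reads in D, 0.871% in J, 1.44% in L and 1.29% in W, a mean of 1.18% with J and 1.28% without it.

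Among matrix glycoproteins, THBS1 (thrombospondin 1) was at 34239 in D, 60609 in J, 57218 in L and 109589 in W. LAMC1, the laminin gamma chain of most basement membranes, was at 43957 in D, 41087 in J, 58555 in L and 78122 in W. EDIL3, an integrin ligand, had a mean of 47041 ± 14844. FBN1, the core of the microfibril, was at 22926 in D, 18025 in J, 81779 in L and 52492 in W. These genes had their highest value in L or W. Of the 62 members with a mean of at least 10, 42 were lowest in J and 6 highest in J, against 35.6% and 35.4% of all genes. ELN, elastin itself, was low, at 19.1 in D, 7.41 in J, 163 in L and 46.7 in W.

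The share of proteoglycans, like that of collagens, was lowest in J, but it was highest in W and not in L. VCAN (versican), a large hyaluronan-binding proteoglycan, was at 83002 in D, 21268 in J, 124626 in L and 167505 in W. BGN (biglycan) was at 73503 in D, 34369 in J, 101455 in L and 76052 in W, and DCN (decorin), which binds along collagen fibrils, at 54553 in D, 14084 in J, 67635 in L and 70335 in W. HSPG2 (perlecan), of basement membranes, had a mean of 39964 ± 21717. The heparan sulfate proteoglycan GPC3 (glypican 3) was at 5672 in D, 365 in J, 10246 in L and 12081 in W. The class took 1.36% of the reads in D, 0.612% in J, 1.68% in L and 1.91% in W, a mean of 1.39% with J and 1.65% without it. Of its 24 members 19 were lowest in J, against 35.6% of all genes.

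Proteinases and their inhibitors took an even share, 1.67% ± 0.13, or 1.72% without culture J. TIMP2, an inhibitor of metalloproteinases, was at 80801 in D, 46177 in J, 102979 in L and 85394 in W. MMP2, the gelatinase that TIMP2 helps to activate, was at 67641 in D, 36170 in J, 91664 in L and 72333 in W, and the activating membrane protease MMP14 at 53815 in D, 18361 in J, 51597 in L and 35178 in W. CST3 (cystatin C) went the other way, at 37714 in D, 96924 in J, 41882 in L and 52502 in W. Cathepsin B (CTSB) was among the even genes with 48648 ± 2572, and HTRA1 had a mean of 49291 ± 13936.

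As classes, the genes of the cell body varied less than collagen chains, though not all to the same degree. FLNA, which cross-links actin, was at 147655 in D, 118904 in J, 259539 in L and 232544 in W, and MYH9, the heavy chain of non-muscle myosin, at 109692 in D, 91449 in J, 140604 in L and 144598 in W. Over the 83 cytosolic ribosomal protein genes, the median SD over cultures of log2(normalized count + 1) was 0.11, against 0.33 over all genes with a mean of at least 10 and 0.80 over collagen chains. No ribosomal protein gene had a range above 2 on that scale. Over intermediate filament genes and over adhesion receptors the median SD was 0.56, above the 0.33 of all genes. RPLP0 had a mean of 75913 ± 5774 and RPS2 of 71955 ± 13004. Glycolytic genes took 1.52% ± 0.16 of the reads, with ENO1 at 111624 ± 17668, GAPDH at 101825 ± 11121 and PKM at 89259 ± 10865. The 86 nuclear genes of oxidative phosphorylation took 0.872% in D, 1.07% in J, 0.712% in L and 0.711% in W, and 76 of the 86 were highest in J, where 35.4% of all genes with a mean of at least 10 lay above the other 3. Chaperones and the secretory pathway took 2.47% ± 0.20, annexins, S100 proteins and galectins 2.14% ± 0.18, adhesion receptors 1.74% ± 0.31, RNA binding proteins 1.36% ± 0.24 and intermediate filaments 1.24% ± 0.28. Without culture J these shares were 2.39% for chaperones, 2.06% for annexins, 1.87% for adhesion receptors, 1.25% for RNA binding proteins and 1.29% for intermediate filaments, and glycolysis and oxidative phosphorylation took 1.47% and 0.765%. The proteasome took 0.925% ± 0.222, lysosome and iron storage genes 0.879% ± 0.0525 and tubulins 0.687% ± 0.0309, against 0.819%, 0.866% and 0.693% without culture J.

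Secreted signals took 0.985% ± 0.161 of the reads, or 0.947% without culture J, and 96 genes were in the class. In the list of 97 signals, which adds EFEMP1 from the matrix glycoproteins, the 10 with the highest mean were IGF2, SEMA3C, CSF1, DKK3, FGF7, CCL2, EFEMP1, TGFB3, VEGFA and KITLG. IGF2, the fetal insulin-like growth factor, was at 39538 in D, 14063 in J, 31980 in L and 56138 in W. SEMA3C, a guidance signal, was at 31807 in D, 15573 in J, 52728 in L and 39854 in W. CSF1, which keeps macrophages alive, was at 15657 in D, 49781 in J, 11784 in L and 22879 in W, and CCL2, which recruits monocytes, at 5212 in D, 50361 in J, 5573 in L and 6255 in W. These 2 myeloid signals were highest in J while IGF2 and SEMA3C were lowest there. FGF7, a mitogen for epithelia, was even, with a mean of 22843 ± 4445, as was VEGFA, the main angiogenic factor, with 13996 ± 2562. TGFB3 was at 22691 in D, 4510 in J, 14724 in L and 19250 in W, and TGFB2, the gene of the protein added to the other cultures, had a mean of 365 ± 98.3 without it. HGF had a mean of 991 ± 235, and IL6 was at 13.9 in D, 195 in J, 14.1 in L and 22.3 in W. Of the insulin-like growth factor binding proteins, IGFBP4 had a mean of 78166 ± 23708, IGFBP6 of 50991 ± 6705 and IGFBP2 of 13791, whereas IGFBP3 had 38.7 and IGFBP5 had 14.3.

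Genes by which marrow stroma supports blood formation were present. CXCL12, the chemokine that holds blood stem cells in the marrow, was at 12274 in D, 8048 in J, 4030 in L and 17573 in W. KITLG, stem cell factor, was at 9432 in D, 17149 in J, 7489 in L and 21709 in W. VCAM1, to which blood precursors adhere, was at 6743 in D, 11647 in J, 1820 in L and 13878 in W, and ANGPT1 at 1254 in D, 545 in J, 735 in L and 2601 in W. All 4 of these genes were highest in W, and VCAM1, KITLG and CXCL12 were lowest in L. The whole list of 14 such genes did not single out W. It summed to 81033 in D, 118952 in J, 53801 in L and 116447 in W, a mean of 92558 with J and 83760 without it. Of its members 3 were highest in J, against 35.4% of all genes, and CSF1, given above, was among them. The transcription factor EBF1 had a mean of 3669 ± 1587 and FOXC1 of 2833 ± 953, whereas IL7, needed by lymphocyte precursors, had 49.7 ± 46.7.

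Receptors for growth factors were led by PDGFRB with 36499 ± 10180, FGFR1 with 20445 ± 7917, PDGFRA with 10767 ± 3025, IGF2R with 9984 ± 2606 and IGF1R with 9332 ± 2329. The TGF-beta receptors were all present. TGFBR2, which binds the ligand, was at 6102 in D, 7269 in J, 5595 in L and 8314 in W. TGFBR1, the signalling partner, was at 3223 in D, 2134 in J, 6516 in L and 4443 in W, and TGFBR3, the co-receptor on which TGF-b2 in particular relies, at 13878 in D, 4594 in J, 6059 in L and 8005 in W. Of 21 listed receptors 16 were lowest in J, against 35.6% of all genes with a mean of at least 10. The hepatocyte growth factor receptor MET was an exception, at 1179 in D, 4733 in J, 798 in L and 529 in W.

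The 10 transcription factors with the highest mean included PRRX1, EPAS1, YBX1, HIF1A, TEAD1, NFIX, JUN, ID3 and FOS. PRRX1, a homeobox factor of limb and connective tissue mesenchyme, was at 70392 in D, 51334 in J, 61801 in L and 56908 in W. EPAS1 and HIF1A, the oxygen-regulated factors, had means of 24760 ± 4921 and 19101 ± 4546. TEAD1, the DNA-binding partner of YAP, had a mean of 18916 ± 3924 and JUN of 17030 ± 3459. FOS ran from 4625 in J to 21208 in W, and for the other 8 of these named factors the highest culture exceeded the lowest by at most 1.98-fold, for YBX1. Of the HOX genes, which record position along the body, 29 were listed and 28 had a mean of at least 10. HOXC6 led with 2396 in D, 1415 in J, 1428 in L and 1945 in W, followed by HOXA5 with a mean of 1088 ± 389, HOXC8 with 1058 ± 362, HOXD8 with 1009 ± 107 and HOXB3 with 993 ± 150. At the other end HOXB9 had 6.19 and HOXD13 had 47.4.

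Genes of the lineages to which these cells can be driven were unevenly present. Among bone genes, ALPL (tissue-nonspecific alkaline phosphatase) was at 11833 in D, 3405 in J, 21928 in L and 14840 in W, and the bone transcription factors RUNX2, DLX5 and SP7 had means of 3666 ± 964, 1813 ± 971 and 1676 ± 1093. IBSP, bone sialoprotein, ranged from 9.13 in W and 35.7 in J to 272 in D and 1662 in L. Among fat genes, CEBPB had a mean of 5503 ± 1187, CEBPA of 5466 ± 2737 and the lipid droplet gene PLIN2 of 3334 ± 842. PPARG, the master factor of fat cells, had 213 ± 72.1 and ADIPOQ (adiponectin) 13.5 ± 9.57. Among cartilage genes, COL11A1 was at 3954 in D, 1227 in J, 7338 in L and 9319 in W, SOX9 had a mean of 581 ± 254, and ACAN (aggrecan) was at 15.7 in D, 10.1 in J, 198 in L and 0 in W. ACAN was therefore above 20 in L alone.

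The tendon list carried more reads, and its matrix members DCN, FMOD and TNC are also made by other fibroblasts. Besides DCN, FMOD (fibromodulin) was at 38125 in D, 5317 in J, 27374 in L and 36738 in W, and TNC (tenascin C) at 32416 in D, 7053 in J, 30141 in L and 34222 in W. EGR1 had a mean of 8582 ± 3516, MKX (Mohawk) was at 983 in D, 234 in J, 993 in L and 203 in W, and SCX (scleraxis), the defining tendon factor, had 171 ± 66. Of the 6 listed tendon genes 5 were lowest in J, against 35.6% of all genes with a mean of at least 10. The sum of the 6 was 137122 in D, 30516 in J, 134610 in L and 153173 in W, a mean of 113855 with J and 141635 without it.

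Smooth muscle and pericyte genes were also abundant. TAGLN (transgelin) was at 68028 in D, 52562 in J, 119754 in L and 131980 in W, and ACTA2 (smooth muscle actin) at 52388 in D, 31682 in J, 94511 in L and 158391 in W. TPM1 had a mean of 57015 ± 17872, MYL9 of 30397 ± 11871 and TPM2 of 23241 ± 3639. The late smooth muscle gene MYH11 was at 231 in D, 368 in J, 680 in L and 5511 in W, and the pericyte gene RGS5 had 103 ± 48.0 and DES, desmin, 3.70 ± 2.79. TAGLN, ACTA2, TPM1, MYL9 and MYH11 were highest in W. TPM2 was highest in L, and J was the lowest culture for 10 of 14 listed genes, against 35.6% of all genes with a mean of at least 10.

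Markers of blood, vessel and epithelium were low. The table held 3 of 11 erythroid genes sought, 4 of 12 endothelial and 3 of 10 epithelial genes. The smallest sum of reads of any gene over all libraries was 81, so the table held no gene with fewer reads, and the values below are of the genes present. Haemoglobin genes HBA and HBA2 had means of 18.4 ± 16.0 and 16.9 ± 14.0, while EPOR, the erythropoietin receptor, was at 90.5 in D, 35.7 in J, 234 in L and 178 in W. The megakaryocyte integrin ITGA2B had a mean of 506 ± 76.2. Of vessel genes, CDH5 and KDR, which define endothelium, had means of 10.5 ± 3.07 and 5.79 ± 6.20, and the transcription factor ERG was at 36.5 in D, 368 in J, 136 in L and 25.4 in W. KRT8, the keratin of simple epithelia, had 1 read in L and none in D, J and W, and the tight junction gene CLDN4 had a mean of 255 ± 173. Skeletal muscle genes TNNT1 and ACTA1 had means of 90.4 ± 24.5 and 14.4 ± 9.56. TUBB3, a neuronal tubulin, had 2965 ± 1203, while the neurofilament gene NEFL had 11.8 ± 14.4.

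Among the 17 listed white blood cell genes, CD68, a lysosomal gene that stromal cells also express, was at 451 in D, 2437 in J, 740 in L and 659 in W. Genes more restricted to myeloid cells were low and were higher in L and W than in D. CSF1R, the receptor for CSF1, was at 7.83 in D, 1.35 in J, 147 in L and 62.9 in W. TYROBP, a myeloid signalling adaptor, was at 1.74 in D, 1.35 in J, 73.5 in L and 33.5 in W, and SPI1 (PU.1), the factor that defines myeloid cells, at 0.870 in D, 1.35 in J, 52.8 in L and 25.4 in W. The 3 genes put L first and W second, and D and J at or near the floor of 3 reads. LCP1 was at 27.8 in D, 174 in J, 633 in L and 231 in W, LAPTM5 at 14.8 in D, 97.0 in J, 270 in L and 93.3 in W, and CORO1A had a mean of 233 ± 59.3.

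**Figure D3:**
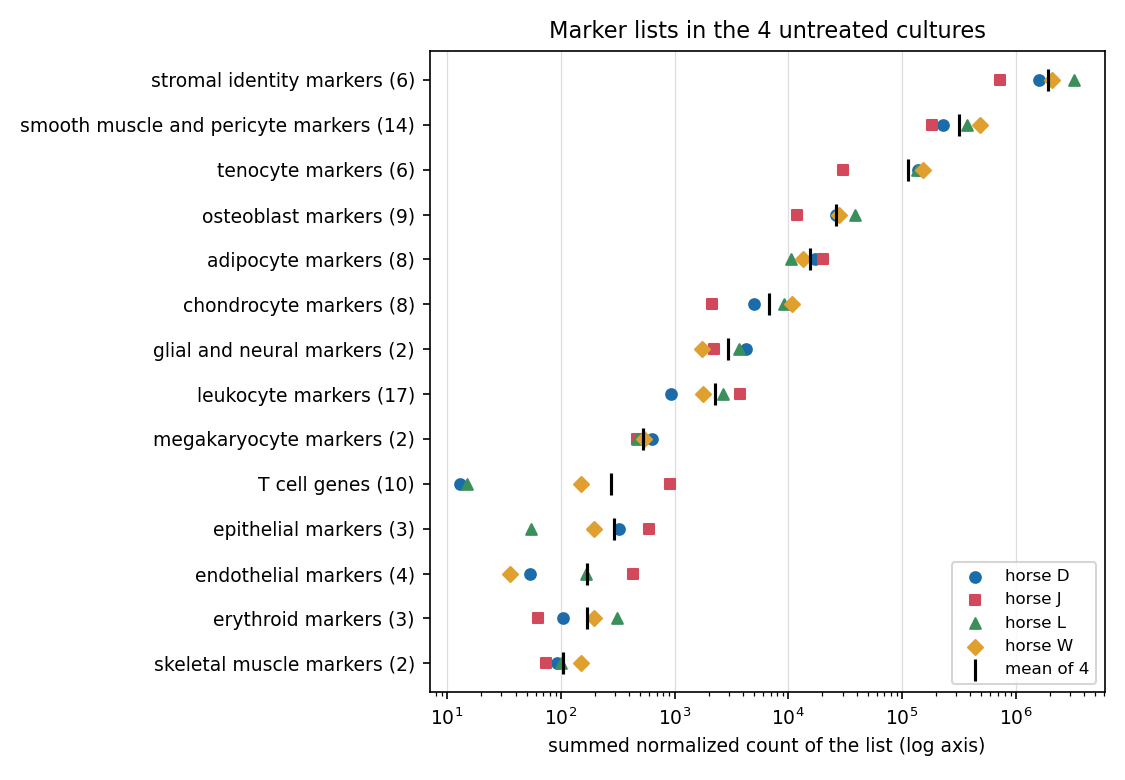
Summed normalized count (log axis) of each of 14 cell type lists in the 4 untreated cultures, with the number of listed genes in brackets, a coloured symbol for each horse and a black bar for the mean of 4. Among the lists plotted, stromal identity, smooth muscle and tenocyte genes have the highest mean sums, lists of blood, vessel and epithelial cells lie lower, and T cell genes separate horses J and W from D and L.

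The spread of single genes over the 4 cultures was measured as the range of log2(normalized count + 1), which understates the spread of genes with few reads. Over the 14951 genes with a mean of at least 10, the median range was 0.73, and 2022 genes (13.5%) had a range above 2, which is about a 4-fold span. Without culture J, 904 genes did. Of the 2022 genes, 869 were highest in J and 685 lowest in J, against 554 highest and 476 lowest in L, 312 and 356 in W, and 287 and 505 in D. The share with a range above 2 was 41.7% among collagens (10 of 24), 38.7% among matrix glycoproteins (24 of 62), 56.7% among secreted signals (51 of 90) and 8.91% among actin cytoskeleton genes, and 12 of 24 proteoglycans passed it. Among the 6662 genes with a mean of at least 1000, 380 had a range above 2.

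The genes with the smallest SD among those with a mean of at least 1000 were CABIN1, YIPF4, KCTD9, RPS14, DNAJB1, LIMS1, STK40, TRPC4AP, MANBAL and HECTD3. CABIN1, a calcineurin-binding protein, was at 4531 in D, 4482 in J, 4525 in L and 4479 in W, and RPS14, of the small ribosomal subunit, at 17540 in D, 17207 in J, 17371 in L and 17596 in W. Among 16 genes often used as references, YWHAZ had 16864 ± 971 and RPL13A 45342 ± 2380, and 15 of the 16 had a range under 2. The exception, B2M, the light chain of MHC class I, was at 15974 in D, 136704 in J, 19640 in L and 66744 in W.

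**Figure D4:**
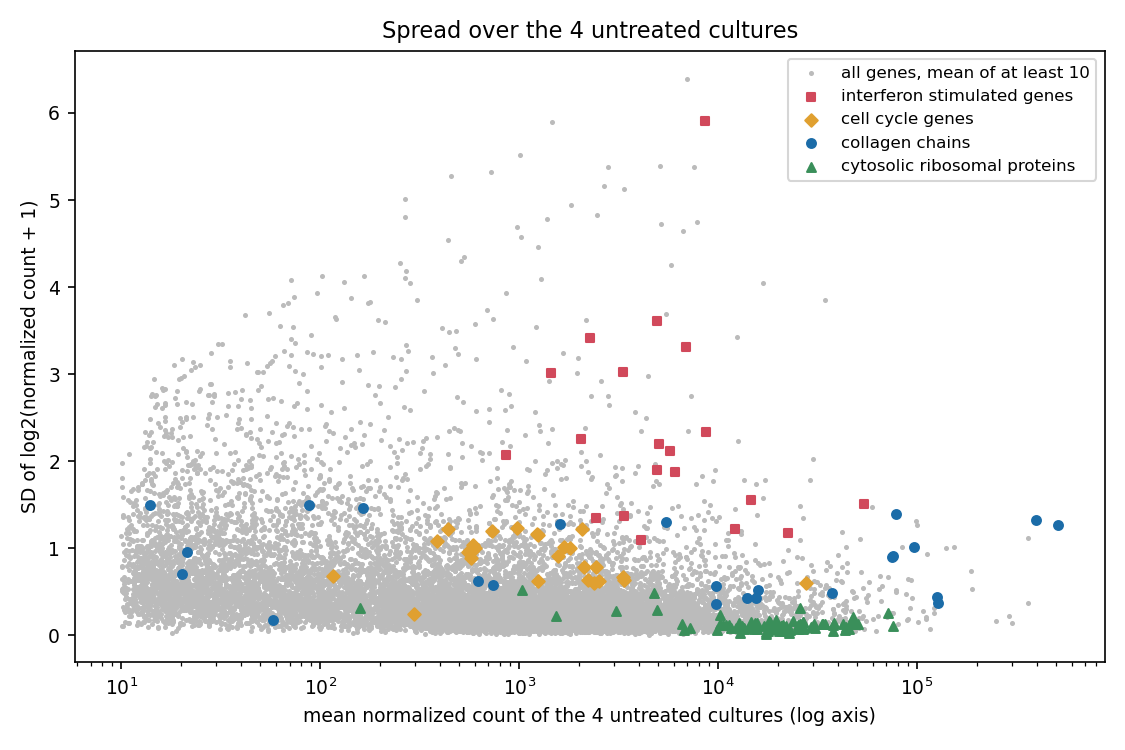
SD over the 4 untreated cultures of log2(normalized count + 1) against the mean normalized count (log axis), for genes with a mean of at least 10, with 4 groups in colour. Interferon stimulated genes lie above most genes of their level, with a median SD of 2.09. Cell cycle genes (0.91) and collagen chains (0.80) come next, and cytosolic ribosomal proteins (0.11) lie along the lower edge.

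The genes with the largest SD, again with a mean of at least 1000, were LOC100070235, CXCL10, CXCL9, APOL6, GBP5, CD74, LOC102148185, DQA, LOC102150010 and TRIM22. Apart from LOC102150010, each was highest in J and second in W. CXCL10 and CXCL9 encode chemokines that attract T cells, GBP5 an interferon-induced guanylate binding protein, and CD74 the invariant chain that guides MHC class II molecules. CXCL10 was at 3.48 in D, 33719 in J, 12.2 in L and 859 in W. CXCL9 was at 0.870 in D, 5122 in J, 0.942 in L and 758 in W, and CD74 at 8.70 in D, 28616 in J, 23.6 in L and 1646 in W. The levels in D and L were close to the floor, and those in W lay between them and J.

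Interferon stimulated genes, the antiviral and immune genes switched on through interferon receptors, were then taken as a list of 20. Culture J was highest for 20 of 20, against 35.4% of all genes, and J was highest with W second for 17 of 20, against 9.12% of all genes. Their sum was 41217 in D, 491438 in J, 49678 in L and 114965 in W, or 0.107%, 1.28%, 0.118% and 0.283% of the reads, and the mean sum was 174324 with J and 68620 without it. IFI27 was at 8102 in D, 48538 in J, 10412 in L and 23111 in W, OAS2, a sensor of double-stranded RNA, at 3953 in D, 40481 in J, 4350 in L and 9734 in W, and DDX58 (RIG-I) at 1021 in D, 30580 in J, 972 in L and 2357 in W. MX1, which blocks viral nucleocapsids, was at 56.6 in D, 18919 in J, 189 in L and 485 in W. By the sum, culture J thus stood above W, and W above D and L, which lay close to each other. Single genes could depart from this, as MX2 did with 36.5 in D, 8728 in J, 188 in L and 112 in W.

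A list of 17 genes that respond to interferon gamma and a list of 6 MHC class II genes were added after these values were seen. The first was highest in J for 17 of 17 genes and the second for 6 of 6, against 35.4% of all genes. W was second for 16 and 6 of them, against 9.12% of all genes with J highest and W second. IRF1 was at 418 in D, 13523 in J, 462 in L and 1965 in W. PSMB9, a subunit of the immunoproteasome, was at 41.8 in D, 6119 in J, 68.8 in L and 432 in W. CIITA, the activator of the class II genes, was at 3.48 in D, 2055 in J, 1.88 in L and 49.7 in W, and DRA, a class II chain, at 5.22 in D, 8937 in J, 20.7 in L and 870 in W. IDO1, which degrades tryptophan, had no read in D and L, 388 normalized counts in J and 19.3 in W. The MHC class I and antigen processing class took 0.0822% of the reads in D, 0.725% in J, 0.0920% in L and 0.322% in W, a mean of 0.305% with J, 0.165% without J and 0.0871% without J and W, and each of its 8 genes was highest in J. EQMHCB2, a class I heavy chain, was at 5231 in D, 62725 in J, 7246 in L and 41334 in W. Class I and class II genes of the horse are near-identical copies that vary between animals, so reads may have been split between them and the level of a single MHC gene is uncertain.

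T cell genes moved with this group. Of 10 listed genes, chosen after the values were seen, 10 were highest in J and second in W, against 9.12% of all genes. CD3D was at 98.3 in J and 14.2 in W, CD3E at 112 in J and 16.2 in W, and CD3G at 52.5 in J and 11.2 in W, and these 3 subunits of the T cell receptor complex had no read in D and L. The list summed to 13.1 in D, 916 in J, 15.1 in L and 151 in W, a mean of 274 with J and 59.8 without it. As these lists were added with such genes already seen to be high in J, their counts are a description. The order J, W and then D with L was the same as for CXCL10 and CD74. Whether T cells in the dish had a part in the interferon genes was not tested.

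**Figure D5:**
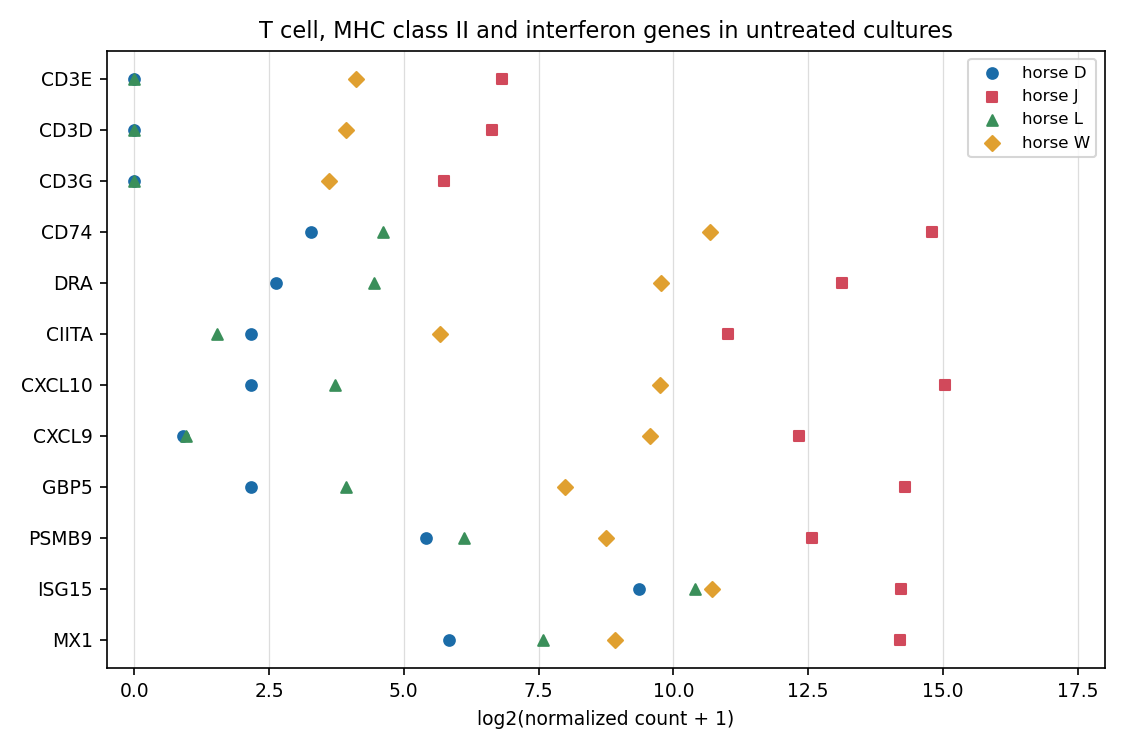
Values of log2(normalized count + 1) of 12 T cell, MHC class II and interferon genes in the 4 untreated cultures, with a coloured symbol for each horse. The square of horse J lies to the right in each row and the diamond of horse W comes second, while CD3D, CD3E and CD3G are at 0 in horses D and L.

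Other groups differed in J as well. All 25 listed cell cycle genes were highest in J, against 35.4% of all genes with a mean of at least 10. They summed to 57136 in D, 111616 in J, 38237 in L and 41661 in W, a mean of 62162 with J and 45678 without it. MKI67, which marks cycling cells, was at 1809 in D, 3314 in J, 873 in L and 715 in W, MCM5, of the replicative helicase, at 1781 in D, 4869 in J, 839 in L and 786 in W, and CCND1 (cyclin D1) at 23005 in D, 47476 in J, 18586 in L and 21957 in W. D came second for MKI67, MCM5 and CCND1. Of the 7 listed senescence and arrest genes, CDKN1A (p21) was even, with a mean of 9375 ± 1499. In this list 4 genes were highest in J, too few to set apart from the share of 35.4%. In all, 493 genes exceeded the mean of the other 3 cultures more than 4-fold in J and 511 lay more than 4-fold below it.

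Each horse gave 2 cultures, and the second, with TGF-b2, was used only for a test of the horse over both of its cultures. limma was fitted to log2(normalized count + 1) of the 8 libraries with terms for the horse and the treatment, and the horse term was tested by an F test with Benjamini-Hochberg adjustment over 15222 genes. As the cultures of a horse came from the same marrow, the horse term cannot tell the animal apart from its marrow sample or cell isolation. By the F test 75 genes (0.493%) differed between horses in this sense, while edgeR called 27 and DESeq2 2940 by the same adjustment. The count rested on which horses were present, since limma called 0 without horse D, 0 without horse L, 2 without W and 195 without J, and 2784 and 2798 genes had an unadjusted p under 0.05 without D and without L. The other tools were not run on the reduced sets. Of the 75, 36 had only a locus name.

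Of the genes named by rule, LOC100066299, a protein-coding gene, had 1816 normalized counts in J, 0.870 in D and no read in L and W (adjusted p = 0.0199), and LOC102150010, a long non-coding RNA, had 4338 in D, 2.69 in J, 5187 in L and 3961 in W (adjusted p = 0.00758). CRYBB3, a beta crystallin, was at 11.3 in D, 519 in J, 317 in L and 2.03 in W (adjusted p = 0.0077), and KBTBD6, of a ubiquitin ligase, at 136 in D, 0.673 in J, 139 in L and 161 in W (adjusted p = 0.0077). These genes were high in some horses and at or near the floor in others. In the second cultures CRYBB3 was at 15.5 in D, 410 in J, 267 in L and 2.40 in W, and LOC102150010 at 3053 in D, 6.42 in J, 7277 in L and 2625 in W. None of the 10 genes named by rule kept its call without horse D or without horse L, 1 did without W, and 7 of the 9 that could be tested did without J. LOC111769006, a long non-coding RNA, had no read in L and between 151 and 162 in the other 3 (adjusted p = 0.00443). LOC100053834 and LOC100067361 were highest in J and then L, LOC111774958 was lowest in D with 5.22, and LOC111767398 was at 80.9 in D against 2331 to 5696 in the others (adjusted p = 0.00443). APOE, the lipid carrier that macrophages make, was at 31.3 in D, 8.08 in J, 529 in L and 233 in W (adjusted p = 0.0484), with L first and W second as for CSF1R, TYROBP and SPI1. Its call was lost with edgeR (adjusted p = 0.0516) and with libraries scaled to 1 total (adjusted p = 0.0533).

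Further called genes, named after their values were seen, had known roles in matrix and signalling. TGM2, tissue transglutaminase, which cross-links matrix proteins, was at 2372 in D, 14710 in J, 550 in L and 1720 in W (adjusted p = 0.00443). COL11A1 (adjusted p = 0.0193), FBN1 (adjusted p = 0.0441), LOX (adjusted p = 0.0484), CSF1 (adjusted p = 0.0489) and CCL2 (adjusted p = 0.0484) were also called, though with edgeR FBN1, LOX, CSF1 and CCL2 were not, with adjusted p values of 0.0516, 0.0596, 0.0569 and 0.0516. CYBB and MPEG1, genes of macrophages that both tests called, were highest in L and then W. COL11A1 was the only one of 24 collagens called, with 11 of the 24 at an unadjusted p under 0.05, 1 called by edgeR and 12 by DESeq2. Of all 15222 tested genes, 3294 had an unadjusted p under 0.05, and limma called 75, edgeR 27 and DESeq2 2940.

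None of the 20 interferon stimulated genes, 6 MHC class II genes or 25 cell cycle genes was called by limma or by edgeR, and their smallest adjusted p values by limma were 0.105, 0.323 and 0.0932. As limma called only 0.493% of all tested genes, no call is what most lists of this size would give. At an unadjusted p under 0.05 the counts were 13, 0 and 24, against 3294 of all 15222 tested genes. DESeq2 called 13, 1 and 24, against 2940 of all tested genes. For 5 T cell genes that passed the filter the smallest adjusted p by limma was 0.433, and 0 passed by any of the 3 tools. The whole T cell list summed to at most 14.9 in any treated culture. A difference present in both cultures of a horse could therefore hardly be called, and this test decides nothing about these genes. Among the treated cultures, horse J had the highest sum of interferon stimulated genes, 42569 against 21569 to 32233, while its sum of MHC class II genes, 880, lay within the 652 to 1295 of the other 3. Its sum of T cell genes, 11.8, lay within 7.15 to 14.9. For cell cycle genes the treated sum was highest in D, at 98819, with 95144 in J, 55609 in L and 42870 in W. The 6 stromal identity genes were not called either, with a smallest adjusted p of 0.0567, 1 at an unadjusted p under 0.05, 0 called by edgeR and 3 by DESeq2.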

How the data were processed

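Poly(A) RNA of 8 equine BM-MSC cultures was sequenced in paired ends, and the 4 cultures with the label Control are described. The authors trimmed reads with Trimmomatic 0.36, aligned them with STAR 2.5.2b to EquCab 3.0, counted uniquely placed reads with featureCounts of Subread 1.5.2 and normalized the counts with DESeq2. The deposited values are normalized counts, a signal per gene and library in which 100% of values gave whole reads (tolerance 0.05) once the scaling was undone. The 1 row without a name (0.0405% of the signal) was left out. Reads fell between 40044240 and 57228675 per untreated library.

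Genes were ranked by the mean of the 4 untreated cultures and shares were taken over named genes. For the horse term, limma 3.58.1 (R 4.3.3) was fitted to log2(normalized count + 1) of genes with at least 10 in at least 2 of 8 libraries, with horse and treatment as terms and Benjamini-Hochberg adjustment. edgeR 4.0.16 and DESeq2 1.42.0 were fitted to the recovered reads as alternatives. On simulated data for the horse term over 15252 genes, with 200 genes changed by a log2 fold of 2, limma recovered 199 with 11 other calls, edgeR 200 with 11 and DESeq2 199 with 22. The simulated counts had the same fixed dispersion for all genes, no treatment effect and no culture that stood apart as J did. They therefore checked that the code ran as meant, and do not show how the tools perform on the real cultures.

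Genes were named by a rule, namely the identity genes, the 20 with the most reads, the leading members of each list or class, the 10 most and 10 least variable, the 10 leading transcription factors and secreted signals, the 5 leading HOX genes and the 10 horse-dependent genes with the largest range. A few genes that the rule names are not reported here. Other genes named in the text were chosen after their values were seen, as were the T cell, MHC class II and interferon gamma lists and the repeat without cultures J and W. All members and lists were chosen with earlier results of these data known. RefSeq names were matched by symbol for 13984 of 15266 genes and by locus number for 268 more.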

Additional observations from a re-analysis of the deposited data

Results flagged for a closer look

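Group sums, shares and the 20 genes with the highest mean were checked in the 4 untreated cultures for a culture far from the rest. The measure was the gap to the nearest culture as a part of the whole range. Of 70 such values 5 stood out, each through culture J. Chance alone passes about 1 in 20 independent values. The 70 values share genes and come from the same cultures, so the number expected by chance is not known. The lists of MHC class II and T cell genes were added after such genes were seen to be high in J, so their standing out was fixed by that choice. Culture J was highest for the summed interferon stimulated genes at 491438 normalized counts, for MHC class II genes at 60108 and for T cell genes at 916. It was lowest for the summed tendon genes at 30516.4 and for growth factor receptors at 86449.8. The cause was not tested.

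The row of the table that carries no gene name held a mean of 16009 normalized counts over the 4 untreated cultures, with 20445 in D, 18836 in J, 11810.5 in L and 12946 in W.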

How the results depend on the processing

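The share of reads in a class was recomputed with the median, with equal totals, which cannot change a share, and with cultures left out. Collagen chains took between 2.88% and 4.75% with 1 culture left out. MHC class I and antigen processing fell from 0.305% to 0.207% with the median, 0.165% without J and 0.0871% without J and W. The share of the 10 leading genes lay between 6.41% and 8.38% when 1 culture was left out, and the number of genes that held 50% of the reads between 654 and 766. The count of 2022 genes with a range above 2 fell to 1013 with a mean of at least 100 required, to 564 without cultures J and W, a set chosen after seeing the data, and to between 904 (without J) and 1745 with 1 culture left out, in part because fewer cultures give a smaller range. The 75 genes called for the horse became 34 with a pseudocount of 0.5, 92 with a pseudocount of 5, 92 without the intensity trend, 71 with TMM scaling, 42 with no filter, 23 with a filter at 50, 44 with equal totals, 27 with edgeR, 2940 with DESeq2 and 6 at an adjusted p under 0.01. Leaving out 1 horse gave 0 to 195. The cause of these shifts was not tested. Of the 10 named horse-dependent genes, edgeR and equal totals kept the call in 18 of 20 repeats. In repeats added after seeing the data it was lost for all 10 without D (adjusted p of 0.0554 to 0.254) and without L (0.0681 to 0.852), and for 9 of 10 without W. Division by coding length was not run, so no order of genes by molecules is given. No paired analysis was possible because the horse is itself the term tested and the untreated cultures were not compared with the treated ones. Genes under the floor of 3 reads cannot be placed in order.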
